A study of Caenorhabditis elegans with 12 samples.

Results

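The genes described here are the aspartyl and cysteine proteases of Caenorhabditis elegans that bear the names asp, cpr, cpl and cpz. Every gene in the deposited count tables whose WBcel235 symbol starts with asp-, cpr-, cpl- or cpz- was taken, which gave 28 of the 46739 listed genes. Of these, 17 were aspartyl proteases (asp-1 to asp-9 and asp-12 to asp-19) and 11 were cysteine proteases (cpl-1, cpr-1 to cpr-6, cpr-8, cpr-9, cpz-1 and cpz-2). RNA from whole worms at the late L4 stage, the last larval stage before adulthood, was sequenced in 12 libraries, 3 for each of 4 genotypes grown at 20 °C. The genotypes were wild-type (strain N2), eat-2(ad465) (strain DA465), acs-20(tm3232) (strain DCL29) and the double mutant eat-2(ad465); acs-20(tm3232) (strain DCL33). Each mutant genotype was represented by a single strain, so a strain's other differences from N2 cannot be told apart from its named mutations. In what follows eat-2 and acs-20 stand for the single mutants.

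Aspartyl proteases of this family resemble pepsin and cathepsin D and cut proteins with a pair of active-site aspartates. Cysteine proteases use an active-site cysteine, and the worm's cpr, cpl and cpz genes code for relatives of cathepsin B, cathepsin L and cathepsin Z. In worms the intestine both releases such enzymes into the gut lumen, where bacteria are digested, and holds them in lysosome-related granules, where the cell's own proteins are broken down. The eat-2 gene codes for part of an acetylcholine receptor of the pharynx, and its mutants pump slowly and are a common model of dietary restriction. The acs-20 gene codes for a member of the FATP family, which takes up fatty acids and couples them to coenzyme A.

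Reads assigned to genes came to 7116623 to 12016769 per library. Counts of the 2 mutated genes did not test the labels: eat-2 had 0 to 3 counts in each library, and acs-20 had 678 to 1333 over a locus whose deleted stretch is not resolved in gene totals. Levels are given in CPM, read counts per 1e+06 reads in genes, scaled between libraries with TMM factors. A gene was called higher or lower at an adjusted p under 0.05, from edgeR's quasi-likelihood test with Benjamini-Hochberg adjustment over 14390 tested genes, and each adjusted p below comes from it unless another tool is named. Of the 28 genes, 21 had enough counts to be tested, 11 aspartyl and 10 cysteine. In whole worms, fewer cells of a type and less RNA per cell cannot be told apart.

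In wild-type worms the aspartyl genes were led by asp-1, an intestinal protease, with 6924 CPM per kilobase of exon. Next on that length-scaled level came asp-6 at 2479, asp-3 at 1822, asp-5 at 1638 and asp-2 at 1340 CPM per kilobase. A lower tier held asp-14 at 418, asp-13 at 381, asp-4 at 251, asp-12 at 89.6 and asp-8 at 70.9 CPM per kilobase. The lowest tested aspartyl gene, asp-17, reached 2.72 CPM per kilobase. The cysteine genes had no such leader. Their length-scaled levels ran from 1450 for cpl-1, the cathepsin L gene, through 1062 for cpr-9, 937 for cpr-4 and 907 for cpr-6. The cathepsin Z gene cpz-1 stood at 604, cpr-1 at 583, cpr-5 at 547 and cpz-2 at 147 CPM per kilobase, with cpr-3 at 17.1 and cpr-8 at 10.4. In eat-2 worms the order differed: cpr-4 ranked first among the cysteine genes with 1818 CPM per kilobase, and asp-12 ranked sixth among the aspartyl genes with 709.

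**Figure D1:**
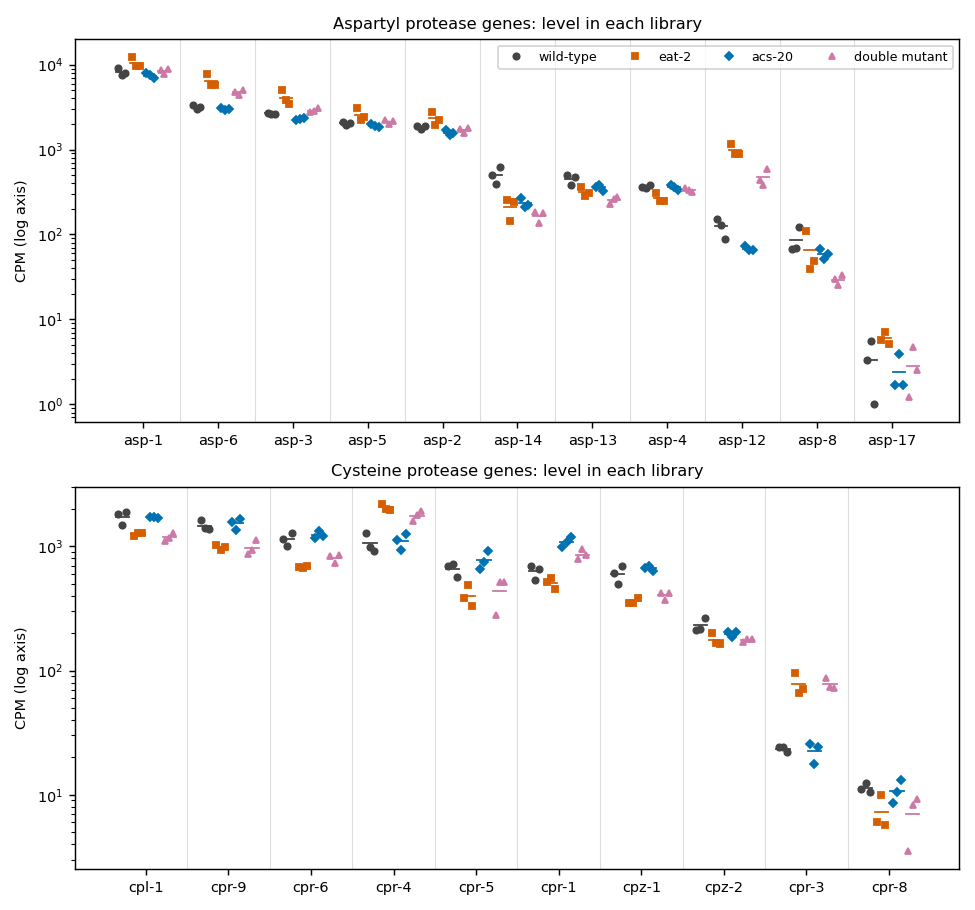
Level of each tested protease gene in each of the 12 libraries, in CPM on a log axis, with the genes of each class ordered by their mean wild-type CPM, each point a library and each short bar the mean of 3 libraries of a genotype. The eat-2 and double mutant points lie far above the other genotypes for asp-12 and cpr-3, and asp-14 is lower in all 3 mutant genotypes.

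The eat-2 mutation was associated with changes in both directions within the aspartyl class. Of 11 tested genes, 3 were higher (asp-12, asp-6 and asp-3) and 3 lower (asp-14, asp-13 and asp-4) than in wild-type. Among all tested genes 7.67% were called in this comparison, 4.12% higher and 3.54% lower. The median log2 fold change of the aspartyl genes was 0.34, against 0.04 over all tested genes.

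The pepsin-like gene asp-12 moved most. It was measured at 154, 131 and 89.4 CPM in the wild-type libraries and at 1174, 893 and 892 CPM in the eat-2 libraries. Every eat-2 library was above every wild-type one, and the gene was 7.91-fold higher (log2 fold change 2.98 ± 0.21 SE, n = 3 per group, edgeR adjusted p = 4.52e-06). Its neighbour asp-6, a more abundant gene of the same kind, read 3338, 2985 and 3159.6 CPM in wild-type and 7775, 5805 and 5689 CPM in eat-2. These groups did not overlap either, and asp-6 was 2.03-fold higher (log2 1.02 ± 0.11 SE, edgeR adjusted p = 6.73e-05). The third gene, asp-3, codes for a lysosomal protease known for its part in the necrotic death of neurons. Its wild-type values lay close together at 2733, 2653 and 2605 CPM, below the eat-2 values of 4965, 3804 and 3484 CPM. The rise was 1.53-fold (log2 0.62 ± 0.11 SE, edgeR adjusted p = 0.00314).

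The other abundant aspartyl genes had higher means in eat-2 without being called. The intestinal gene asp-1 had 9055, 7661 and 8024 CPM in wild-type and 12380.2, 9578 and 9749.8 CPM in eat-2. The groups did not overlap, but the log2 difference of 0.36 ± 0.10 SE missed the threshold (edgeR adjusted p = 0.0519). For asp-5 the values were 2097, 1922 and 2075 CPM against 3093, 2235 and 2402 CPM (log2 0.34, adjusted p = 0.0682), and for asp-2 they were 1908, 1746 and 1897 CPM against 2773, 1974 and 2249.7 CPM (log2 0.33, adjusted p = 0.091). In both genes the lowest eat-2 library was above the highest wild-type one by a small margin. Replicate 1 of eat-2 was the highest of its group for 10 of the 11 tested aspartyl genes. Its summed level of 19 intestine markers, 7648 CPM, was also the highest of any library, against 5663 and 6159 CPM in the other eat-2 libraries and 5994 to 6255 CPM in wild-type. Such a sum weighs abundant markers most. The median log2 fold change of the 19 in eat-2 was 0.08, with 1 called higher and 1 lower. The part of eat-2 replicate 1 in the result can be read from the fit without it. There asp-12 remained higher by 2.84, asp-6 by 0.86 and asp-3 by 0.45 on the log2 scale, all 3 still called, and the asp-1 difference shrank to 0.23 (adjusted p = 0.179). Without replicate 2 of eat-2, asp-1, asp-5 and asp-2 were called higher (adjusted p = 0.049, 0.0333 and 0.0346).

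Among the aspartyl genes that fell, asp-14 changed most. Its wild-type libraries held 498, 395 and 619.8 CPM, all above the 254, 145 and 242 CPM of eat-2, a 2.36-fold drop (log2 -1.24 ± 0.22 SE, edgeR adjusted p = 0.00462). Its call stood in every fit that left out 1 of the 12 libraries. The calls on asp-13 and asp-4 were less firm. For asp-13 the values of 508, 380.2 and 472 CPM in wild-type stood above 366, 282 and 305 CPM in eat-2 (log2 -0.51 ± 0.13 SE, adjusted p = 0.028). This call was lost without wild-type replicate 1 (adjusted p = 0.133) or 3 (0.084) and without eat-2 replicate 2 (0.0831) or 3 (0.101). The worm's closest counterpart of cathepsin D, asp-4, acts with asp-3 in the same kind of neuronal death. It fell while asp-3 rose, from 363, 357 and 382 CPM to 311, 251 and 251 CPM (log2 -0.44 ± 0.10 SE, edgeR adjusted p = 0.016). Its call was lost without wild-type replicate 1 (adjusted p = 0.0529) or 3 (0.0562) or eat-2 replicate 3 (0.0768). Within each library the ratio of asp-3 to asp-4 counts, which needs no scaling between libraries, was 7.53, 7.44 and 6.82 in wild-type and 15.99, 15.2 and 13.9 in eat-2. Some asp-4 counts may belong to R12H7.4, whose exons overlap it by 33 bases on the opposite strand. The remaining tested genes, asp-8 and asp-17, had overlapping groups and no call. Without eat-2 replicate 1, whose 111 CPM stood apart from 39.1 and 48.5 CPM, asp-8 was called lower (log2 -0.98, adjusted p = 0.0459).

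**Figure D2:**
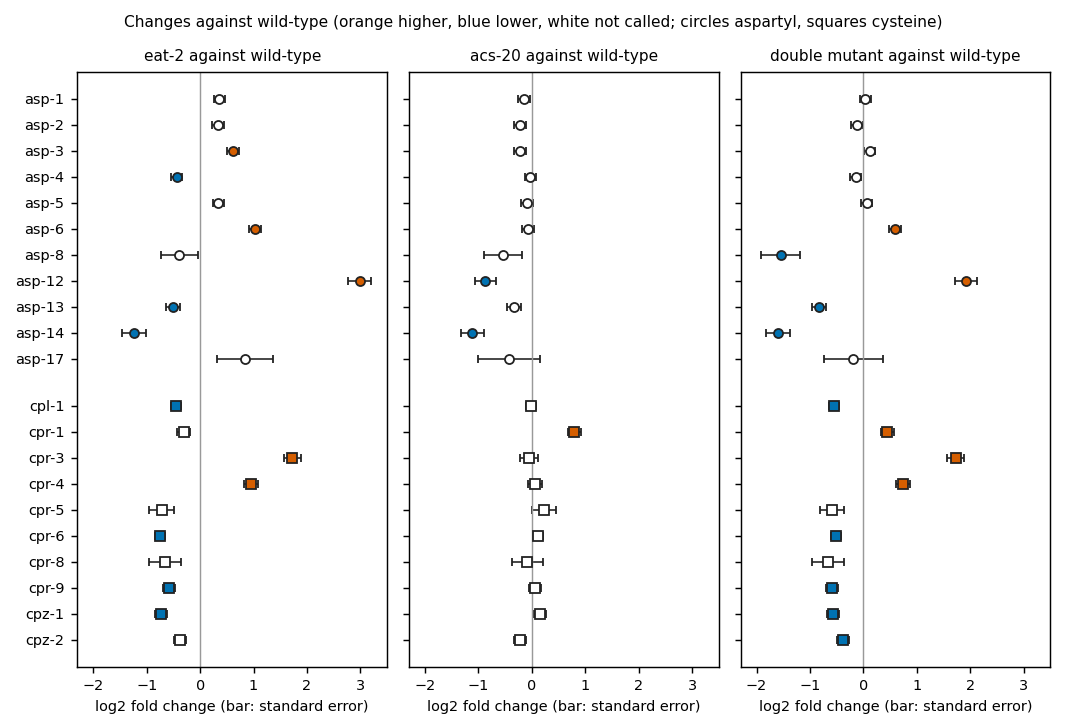
Log2 fold change of each tested protease gene in eat-2, acs-20 and double mutant worms against wild-type, with bars for the standard error from the edgeR fit, circles for aspartyl and squares for cysteine genes, and orange and blue fills for genes called higher and lower. The eat-2 and double mutant panels hold calls on both sides of 0 in both classes, and the acs-20 panel holds 3 calls.

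The cysteine genes split differently in eat-2: 2 were higher and 4 lower of 10 tested, with a median log2 fold change of -0.52. Over all tested genes 4.12% were higher and 3.54% lower there, with a median of 0.04. Both cysteine genes that rose code for relatives of cathepsin B. The scarcer, cpr-3, went from 24.2, 24.01 and 22.1 CPM in wild-type to 94.9, 65.8 and 71.5 CPM in eat-2. The groups were far apart and cpr-3 was 3.3-fold higher (log2 1.72 ± 0.16 SE, edgeR adjusted p = 2.02e-05). The abundant cpr-4, which codes for a protease that can be secreted, had 1268, 992 and 915 CPM in wild-type and 2189, 1999.9 and 1969 CPM in eat-2. It was 1.94-fold higher, with no overlap (log2 0.96 ± 0.13 SE, edgeR adjusted p = 0.000418).

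The 4 that fell were among the 5 cysteine genes with the highest levels per kilobase in wild-type worms. For cpr-6, a cathepsin B gene, the libraries read 1143, 1005 and 1281 CPM in wild-type and 679, 666 and 695 CPM in eat-2 (log2 -0.75 ± 0.10 SE, edgeR adjusted p = 0.00037). The eat-2 values lay within a narrow band below all wild-type values. Its class neighbour cpr-9 read 1619.8, 1396 and 1381 CPM in wild-type and 1019, 940.1 and 987 CPM in eat-2 (log2 -0.58 ± 0.11 SE, adjusted p = 0.00561). The cathepsin Z gene cpz-1, needed for moulting, went from 607, 500.4 and 690.2 CPM to 349, 352 and 383.5 CPM (log2 -0.73 ± 0.11 SE, adjusted p = 0.00113). The cathepsin L gene cpl-1, needed for yolk handling in embryos and for moulting, went from 1823, 1472 and 1881 CPM to 1219, 1276 and 1269 CPM (log2 -0.46 ± 0.09 SE, adjusted p = 0.00865). None of these pairs of groups overlapped, and all 6 cysteine calls stood in each of the 12 fits that left out a library.

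Of the 4 cysteine genes without a call, all had lower means in eat-2. The gut gene cpr-5 had 699, 715 and 565 CPM in wild-type and 383.5, 485 and 330.5 CPM in eat-2, with no overlap (log2 -0.72 ± 0.23 SE, adjusted p = 0.0818). The second cathepsin Z gene, cpz-2, had 213, 214 and 264 CPM against 201, 166 and 162 CPM (log2 -0.38, adjusted p = 0.0511). It overlaps the exons of gcy-34 on the opposite strand by 59 bases. DESeq2 called both lower (adjusted p = 0.0198 for cpr-5 and 0.0166 for cpz-2). In edgeR cpz-2 was also called without eat-2 replicate 1 (0.0248), and both were called without double mutant replicate 1 (0.0107 for cpr-5 and 0.043 for cpz-2). The best known gut gene of the family, cpr-1, had 694, 530.4 and 662 CPM against 512, 558 and 455 CPM, which overlapped (log2 -0.31, adjusted p = 0.15). The low-level cpr-8 differed by -0.66 on the log2 scale with a SE of 0.30 (adjusted p = 0.223).

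The 2 classes were also summed. Aspartyl genes together held 20723, 18306 and 19446.5 CPM in wild-type and 33209.8, 25013 and 25319 CPM in eat-2. Cysteine genes together held 8103, 6861 and 7671 CPM in wild-type and 6653, 6519 and 6329 CPM in eat-2. On this TMM-scaled level the aspartyl sum was higher and the cysteine sum lower in each eat-2 library than in any wild-type library. As a plain share of gene counts the aspartyl groups still did not overlap, at 1.79 to 1.97% and 2.53 to 3.16%, but the cysteine groups did, since eat-2 replicate 2 held 0.6793% and wild-type replicate 2 held 0.6772%. The ratio of aspartyl to cysteine counts within a library was 2.56, 2.67 and 2.54 in wild-type, 4.99, 3.84 and 4.001 for eat-2, 2.23, 2.11 and 1.91 for acs-20, and 3.49, 2.93 and 3.11 for the double mutant. The eat-2 and double mutant libraries lay above wild-type and the acs-20 libraries below it, with no overlap between either pair and wild-type. The gene asp-1 alone made up 42.3% of the aspartyl sum in wild-type and 37.95% in eat-2, while asp-6 went from 16.2% to 23.1%. Among the cysteine genes the ratio of cpr-4 to cpr-6 counts went from 1.11, 0.986 and 0.714 in wild-type to 3.22, 3.00 and 2.83 in eat-2.

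**Figure D3:**
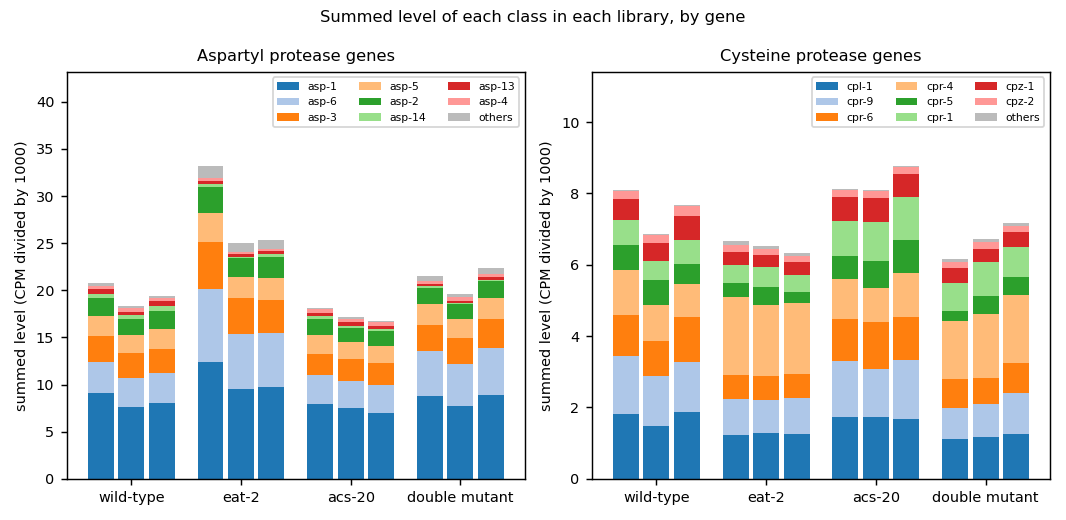
Summed level of the aspartyl genes (left) and the cysteine genes (right) in each library, in CPM divided by 1000, with bars stacked by gene and 3 bars for each genotype, both axes starting at 0. In eat-2 libraries the aspartyl bars reach 25013 to 33209.8 CPM against 18306 to 20723 CPM in wild-type, and cpr-4 is the tallest segment of their cysteine bars.

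Few of these genes differed between acs-20 and wild-type. By edgeR 2 of 11 aspartyl genes were lower and 0 higher, and 1 of 10 cysteine genes was higher and 0 lower. At an unadjusted p under 0.05, and by DESeq2, the higher aspartyl and lower cysteine genes were also 0. Over all tested genes 2.21% were called in this comparison, 0.987% higher and 1.22% lower. All 11 aspartyl log2 fold changes were below 0, from -1.11 to -0.03, with a median of -0.23 against 0.01 over all tested genes. Only 3 of the 11 were lower at an unadjusted p under 0.05. Over all tested genes 7086 of 14390 were below 0. The cysteine median was 0.06.

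The gut cathepsin B gene cpr-1 was the one that rose. It read 694, 530.4 and 662 CPM in wild-type and 986, 1087 and 1198 CPM in acs-20, with every acs-20 library above every wild-type one. The rise was 1.73-fold (log2 0.79 ± 0.12 SE, edgeR adjusted p = 0.00242), and it stood in each fit that left out a library. The 2 that fell, asp-14 and asp-12, were less firm. For asp-14 the acs-20 libraries held 269, 210.3 and 220.4 CPM, below the wild-type values given above (log2 -1.11 ± 0.22 SE, adjusted p = 0.0196). This call was lost without wild-type replicate 1 (0.0647) or 3 (0.0676) or acs-20 replicate 2 (0.0544) or 3 (0.0883). For asp-12 the acs-20 libraries held 73.9, 66.0 and 64.9 CPM, also below all wild-type libraries (log2 -0.87 ± 0.20 SE, adjusted p = 0.0434). That call was lost in 8 of the 12 fits that left out a library, with adjusted p up to 0.169, among them each fit without an acs-20 library (0.0928, 0.114 and 0.169), without wild-type replicate 1 (0.157) or 2 (0.118), without eat-2 replicate 2 (0.0637) or 3 (0.0658), and without double mutant replicate 1 (0.0637). Of 19 intestine markers, 1 was higher (pgp-1) and 1 lower (eps-8) in acs-20, and their summed level was 5146 to 5605 CPM, below the 5994 to 6255 CPM of wild-type. Its part in the aspartyl values was not tested.

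The double mutant was compared with the same wild-type libraries as eat-2, so its values are set beside those of eat-2 without a measure of likeness. Against wild-type, 2 of 11 aspartyl genes were higher (asp-12 and asp-6) and 3 lower (asp-14, asp-8 and asp-13), and 3 of 10 cysteine genes were higher (cpr-3, cpr-4 and cpr-1) and 5 lower (cpr-9, cpz-1, cpl-1, cpr-6 and cpz-2). The background was wide here, with 17.6% of all tested genes called, 8.94% higher and 8.62% lower. Median log2 fold changes were -0.12 for aspartyl and -0.53 for cysteine genes, against 0.04 over all tested genes.

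Double mutant libraries held 438, 385.1 and 588 CPM of asp-12, above all wild-type and below all eat-2 libraries. This was 3.77-fold above wild-type (log2 1.92 ± 0.20 SE, edgeR adjusted p = 6.3e-05). For asp-6 they held 4786, 4382 and 5077 CPM, again between wild-type and eat-2 (log2 0.59 ± 0.11 SE against wild-type, adjusted p = 0.00249). The lysosomal gene asp-3, called in eat-2, was at 2772, 2823 and 3051 CPM and not called (log2 0.11, adjusted p = 0.514). Such intermediate levels contrast with asp-14, whose mean was lowest in this genotype, at 183, 135 and 180.4 CPM (log2 -1.60 ± 0.22 SE against wild-type, adjusted p = 0.00051). Likewise asp-13 had 226, 261 and 275 CPM, below all libraries of wild-type (log2 -0.84 ± 0.13 SE, adjusted p = 0.000816). For asp-8 the values of 29.7, 25.2 and 33.5 CPM were below all libraries of every other genotype, where wild-type had 67.6, 70.1 and 121.8 CPM and acs-20 had 67.6, 51.7 and 59.3 CPM. The asp-8 difference from wild-type was 2.93-fold (log2 -1.55 ± 0.37 SE, adjusted p = 0.0145). It was lost without wild-type replicate 3 (0.0551) and without double mutant replicate 1 (0.0562) or 2 (0.0624).

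Among cysteine genes the double mutant had 87.2, 73.3 and 72.7 CPM of cpr-3 (log2 1.73 ± 0.16 SE against wild-type, edgeR adjusted p = 9.75e-06) and 1609.7, 1789.6 and 1906 CPM of cpr-4 (log2 0.74 ± 0.13 SE, adjusted p = 0.00158). Both were above all wild-type libraries. Lower than all wild-type libraries were cpr-6 at 833, 729 and 844 CPM, cpr-9 at 862, 933 and 1124 CPM, cpz-1 at 418, 371 and 418 CPM, and cpl-1 at 1111, 1165 and 1268 CPM. Their log2 fold changes were -0.51, -0.59, -0.58 and -0.55, with adjusted p of 0.00325, 0.0026, 0.00316 and 0.00152. The second cathepsin Z gene, cpz-2, read 171, 180.3 and 179 CPM and was called lower (log2 -0.38, adjusted p = 0.0292), but not without wild-type replicate 3 (0.136) or double mutant replicate 1 (0.0754), 2 (0.0652) or 3 (0.0549). The gut gene cpr-1 was at 785, 945 and 845 CPM, above all wild-type libraries (log2 0.45 ± 0.12 SE, adjusted p = 0.0205). Its call was lost without wild-type replicate 2 (0.088) or double mutant replicate 2 (0.103). With 278, 519.8 and 511 CPM, cpr-5 was not called by edgeR (log2 -0.59, adjusted p = 0.0973), while DESeq2 called it lower (0.0375). Replicate 1 of the double mutant was the lowest of its group for 7 of the 10 tested cysteine genes.

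Set against eat-2, the double mutant shows what the acs-20 mutation went with in worms that already carried the eat-2 mutation. Of the aspartyl genes 2 of 11 were lower (asp-12 and asp-3) and 0 higher, and of the cysteine genes 1 of 10 was higher (cpr-1) and 0 lower, where 2.11% of all tested genes were called, 1.36% higher and 0.757% lower. The aspartyl median was -0.44 on the log2 scale, with 10 of 11 genes below 0, against 0.00 for the cysteine genes. Over all tested genes 7179 of 14390 were below 0. At an unadjusted p under 0.05 there were 1 higher aspartyl gene (asp-4) and 0 lower cysteine genes, and DESeq2 called 0 of either. For asp-12 the log2 difference was -1.07 ± 0.20 SE (edgeR adjusted p = 0.0128), and for asp-3 it was -0.50 ± 0.11 SE (adjusted p = 0.0271), with no overlap of the groups in either gene. Neither call stood in every fit: asp-12 was lost without eat-2 replicate 1 (0.0503) and without double mutant replicate 1 (0.0849) or 2 (0.0641), and asp-3 without double mutant replicate 1 (0.124) or 2 (0.113). DESeq2 called 5 aspartyl genes lower, adding asp-2 (adjusted p = 0.0121), asp-6 (0.0163) and asp-8 (0.0149), which edgeR gave at 0.055, 0.0561 and 0.161. In edgeR asp-2 was called without wild-type replicate 2 (0.0443), eat-2 replicate 2 (0.0185) or acs-20 replicate 2 (0.0432), and asp-6 without wild-type replicate 2 (0.0476) or eat-2 replicate 2 (0.047) or 3 (0.0464). The summed level of the intestine markers was 5374 to 5890 CPM in the double mutant and 5663 to 7648 CPM in eat-2, and its part in the aspartyl values was not tested. The rise of cpr-1, by 0.75 ± 0.12 SE on the log2 scale (1.69-fold, adjusted p = 0.0041), stood in each fit that left out a library.

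Set against acs-20, the double mutant shows what the eat-2 mutation went with where acs-20 was already mutated. The comparison called 2 aspartyl genes higher (asp-12 and asp-6), 1 lower (asp-13), 2 cysteine genes higher (cpr-3 and cpr-4) and 5 lower (cpr-5, cpz-1, cpr-9, cpr-6 and cpl-1), where 12.9% of all tested genes were called, 7.64% higher and 5.31% lower. In acs-20 libraries asp-6 stood at 3103, 2931 and 3000.2 CPM and cpr-4 at 1118, 941 and 1246 CPM, both below all double mutant libraries. The log2 differences were 2.78 ± 0.21 SE for asp-12 (edgeR adjusted p = 9.5e-06), 0.66 ± 0.11 SE for asp-6 (0.00191), 1.78 ± 0.16 SE for cpr-3 (1.91e-05) and 0.68 ± 0.13 SE for cpr-4 (0.00415). The 5 lower cysteine genes ranged from -0.83 for cpr-5 to -0.53 for cpl-1. In acs-20 cpr-5 had 653, 752 and 923 CPM, above all double mutant libraries, and its call (adjusted p = 0.0358) was lost without acs-20 replicate 2 (0.0531) or 3 (0.124), double mutant replicate 1 (0.0582), wild-type replicate 1 (0.0504) or eat-2 replicate 1 (0.0504). The asp-13 call (log2 -0.50, adjusted p = 0.0237) was lost without acs-20 replicate 1 (0.0679) or 2 (0.061) and without double mutant replicate 1 (0.0856) or 2 (0.0573). Calls were gained without eat-2 replicate 1 for asp-3 (adjusted p = 0.0116) and asp-8 (0.0116), without eat-2 replicate 3 for asp-3 (0.0493) and without wild-type replicate 2 for cpr-1 (0.0428).

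The effect of the eat-2 mutation could thus be read in 2 backgrounds that share no libraries. Over the 21 tested genes its log2 fold changes in the 2 backgrounds had a Pearson r of 0.955 and a Spearman rho of 0.882, and 21 of 21 had the same sign. Over all 14390 tested genes r was 0.603 and 69.02% had the same sign. The effect of the acs-20 mutation, read the same way, had r = 0.766 and rho = 0.826 over the 21 genes, with 16 of 21 of the same sign, against r = 0.402 and 61.8% over all tested genes. These correlations are across genes, which are not independent replicates, and abundant genes are measured more closely than the average gene. No protease gene passed the test of the interaction, the eat-2 effect in acs-20 mutants minus that in worms with intact acs-20. In edgeR that count was 0 of 11 aspartyl and 0 of 10 cysteine genes, where 0.188% of all tested genes were called. At an unadjusted p under 0.05 there were 3 aspartyl genes (asp-14, asp-6 and asp-4) and 0 cysteine genes, and DESeq2 also called 0 in both classes. The largest of these differences were 0.75 ± 0.31 SE for asp-14 (adjusted p = 0.658) and -0.37 ± 0.15 SE for asp-6 (adjusted p = 0.658), so differences of that size between the backgrounds could not be told from 0 at this depth and number of libraries.

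**Figure D4:**
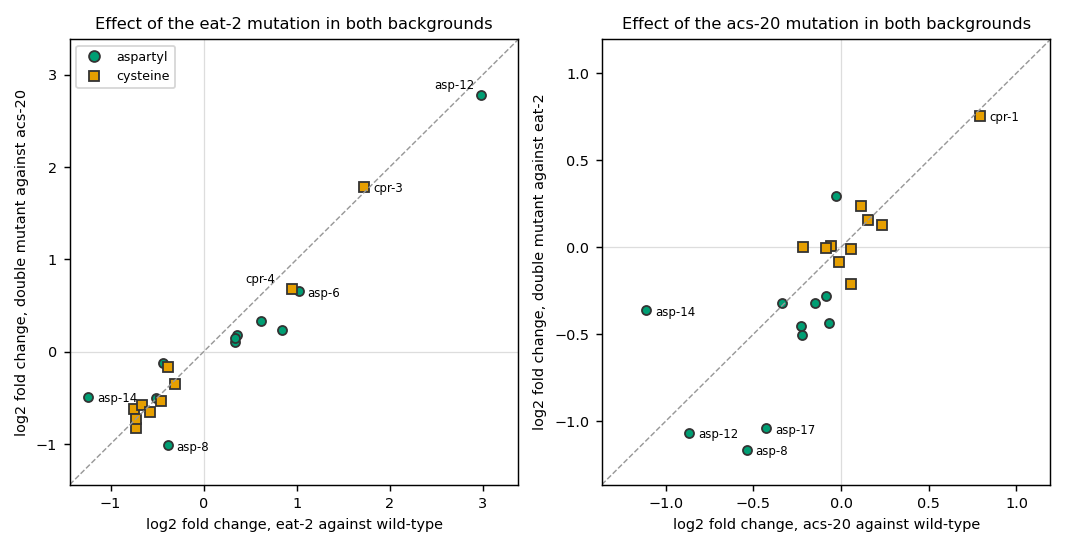
Each point is a tested protease gene, with the log2 fold change of the eat-2 mutation (left) or the acs-20 mutation (right) in an otherwise wild-type background on the x axis and in the background of the other mutation on the y axis, and a dashed line of equal change. On the left asp-12, cpr-3, cpr-4 and asp-6 lie near the line, with r = 0.955 over 21 genes, and on the right cpr-1 stands at 0.79 and 0.75 while asp-8, asp-12, asp-14 and asp-17 lie in the lower left.

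The 7 genes left untested were near the limit of detection. No read was counted for asp-18 or asp-19 in any of the 12 libraries. A low level is not excluded by this, since an expected count of up to about 3 over a genotype could still give 0. A single read was counted for asp-15, in eat-2 replicate 3. Totals over the 3 libraries of a genotype were 1 to 4 counts for asp-7, 3 to 12 for asp-9, 0 to 10 for asp-16 and 3 to 7 for cpr-2. The tested gene asp-17 was also scarce, with 10 to 61 counts per library.

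Position on the chromosomes set many of these genes side by side. Chromosome V held 22 of the 28 genes and 16 of the 21 tested ones (76.2%), against 19.3% of all tested genes. The genes asp-6, asp-12 and asp-5 are consecutive coding genes in the annotation, yet their changes in eat-2 differed in size: 2.03-fold for asp-6, 7.91-fold for asp-12 and 1.27-fold, not called, for asp-5. Within libraries, asp-12 counts were 0.0734, 0.0680 and 0.0431 of asp-5 counts in wild-type, 0.380, 0.400 and 0.371 for eat-2, 0.0370, 0.0353 and 0.0348 for acs-20, and 0.199, 0.193 and 0.272 for the double mutant. Scaling between libraries does not enter these ratios, and in each genotype they stayed within a range that did not overlap another's. A run of asp-17, asp-16, asp-15 and asp-1 joined the most abundant aspartyl gene to 3 of the scarcest. The pair asp-8 and asp-7 and the pair asp-19 and asp-18 were also adjacent, as were cpr-5 and cpr-8. Reads shared by near-identical copies may have been set aside in counting, and this was not tested.

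The coding gene on the other side of cpr-5, W07B8.4, rose by more in eat-2 than asp-12 did on the log2 scale. Wild-type libraries had 0.207, 0.565 and 0.201 CPM and eat-2 libraries 3.62, 6.86 and 5.27 CPM. The double mutant had 3.14, 3.09 and 3.27 CPM and acs-20 0.317, 0.327 and 0.140 CPM, so that both genotypes with the eat-2 mutation were above both without it. The log2 fold change in eat-2 was 3.94 ± 0.38 SE (edgeR adjusted p = 2.92e-05), from low counts, and the call stood in each fit that left out a library. It belonged to a list of 25 names for related genes outside the symbol rule. Of these names 10 proved to be older names of genes already described, 1 is the older name of another gene, 14 matched a listed gene and 9 of those were tested. In eat-2 2 of the 9 were higher and 2 lower, where 4.12% of all tested genes were higher and 3.54% lower. Double mutant worms had 2 higher and 3 lower than wild-type, against 8.94% and 8.62% of all tested genes. The other gene higher in both was tag-196, a cathepsin F homologue, with 61.5, 55.4 and 65.8 CPM in wild-type and 105, 101 and 114 CPM in eat-2 (log2 0.81 ± 0.10 SE, adjusted p = 0.000238). Double mutant log2 fold changes against wild-type were 3.21 for W07B8.4 (adjusted p = 0.000123) and 0.68 for tag-196 (0.000556). The gene that fell most in eat-2 was Y40H7A.10, with 7.36, 9.51 and 12.1 CPM in wild-type, 2.29, 3.26 and 4.14 CPM in eat-2, 8.03, 9.91 and 11.1 CPM in acs-20 and 4.22, 5.52 and 4.09 CPM in the double mutant. Both genotypes with the eat-2 mutation lay below both without it. The log2 fold change was -1.56 ± 0.25 SE in eat-2 (adjusted p = 0.00172) and -1.07 ± 0.24 SE in the double mutant (0.00757), and both calls stood in each fit that left out a library. R07E3.1 was also lower in both, by -0.51 in eat-2 (adjusted p = 0.0334) and -0.69 in the double mutant (0.00348), and Y51A2D.8 in the double mutant by -1.43 (0.043). Leaving out a library ended the R07E3.1 call in eat-2 in 5 of 12 fits (up to 0.133 without wild-type replicate 3) and the Y51A2D.8 call in 7 (up to 0.128 without wild-type replicate 1).

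Cystatins and serpins inhibit proteases, and of 8 tested genes of these families 1 was lower in eat-2, the cystatin gene cpi-1, where 3.54% of all tested genes were lower. At an unadjusted p under 0.05 there were 3 of the 8. The cpi-1 libraries read 22.1, 24.3 and 24.97 CPM in wild-type, 13.8, 10.35 and 14.6 CPM in eat-2, 23.1, 27.4 and 19.4 CPM in acs-20 and 32.1, 25.5 and 21.3 CPM in the double mutant. Only the eat-2 libraries stood low, by -0.88 ± 0.18 SE against wild-type on the log2 scale (edgeR adjusted p = 0.00793), and the double mutant was 1.02 ± 0.18 SE above eat-2 (adjusted p = 0.00712). For the interaction edgeR called 0 of the 8 genes and DESeq2 called 1. There cpi-1 was called in 3 of 16 alternative settings. Against wild-type the double mutant had 1 of the 8 higher, where 8.94% of all tested genes were higher. This was srp-6, a serpin that restrains lysosomal cysteine proteases (log2 0.50 ± 0.13 SE, adjusted p = 0.0183). The srp-6 call was lost in 4 of the 12 fits that left out a library, with an adjusted p of up to 0.0631 without wild-type replicate 1, and the cpi-1 calls in none. Against acs-20 the double mutant had 1 higher, where 7.64% of all tested genes were higher. This was the serpin gene srp-2 (log2 1.33 ± 0.35 SE, adjusted p = 0.0252). It was lost in 4 of 12 fits (up to 0.0975 without acs-20 replicate 1), and DESeq2 called 0 of the 8 there. No member of the list was called in acs-20 against wild-type by edgeR or DESeq2, with 2 at an unadjusted p under 0.05.

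Of 30 other tested peptidase genes of the gut and lysosome, 7 were lower and 1 higher in eat-2, where 3.54% of all tested genes were lower and 4.12% higher. Double mutant worms had 11 lower and 3 higher than wild-type, against 8.62% and 8.94%. The 3 with the smallest p among the lower ones in eat-2 were pes-9 (log2 -0.68), ctsa-3.1 (-0.65) and the aminopeptidase P gene app-1 (-0.41), with edgeR adjusted p of 0.00287, 0.00536 and 0.0161. The higher one was ctsa-4.2 (log2 0.37, adjusted p = 0.0471). In acs-20 1 was lower, pcp-4 (log2 -0.91, adjusted p = 0.0156), where 1.22% of all tested genes were lower. Of these calls, ctsa-4.2 was lost in 12 of 12 fits that left out a library (up to 0.171 without eat-2 replicate 1), app-1 in 4 (up to 0.0659 without wild-type replicate 1) and pcp-4 in 3 (up to 0.0706 without acs-20 replicate 3). Of the other 4 lower in eat-2, lap-1 was lost in 8 fits (up to 0.148 without wild-type replicate 1), and pam-1 (0.073 without wild-type replicate 1), pcp-3 (0.114 without eat-2 replicate 3) and tpp-2 (0.116 without eat-2 replicate 3) in 4 each. Only pes-9 and ctsa-3.1, of the 8 calls in eat-2, stood in all 12. The smallest p among the lower genes of the double mutant belonged to pcp-3 (log2 -0.95, adjusted p = 0.000922), pes-9 (-0.59, 0.00368) and pam-1 (-0.42, 0.00579), which stood in all 12 fits. The higher ones were ctsa-4.2 (log2 0.39, adjusted p = 0.0188), lgmn-1 (0.75, 0.0232) and ctsa-1.2 (0.83, 0.0391), lost in 4, 4 and 7 fits, with adjusted p up to 0.086 (wild-type replicate 3 left out), 0.0986 (double mutant replicate 1) and 0.145 (double mutant replicate 2). Summed, the list held 5335 to 6184 CPM in wild-type, 4655 to 5403 CPM in eat-2 and 4064 to 4953 CPM in the double mutant.

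Of 7 tested genes for the transport of peptides and amino acids, 1 was lower in eat-2, where 3.54% of all tested genes were lower. This was laat-1, the lysosomal exporter of lysine and arginine. It had 38.7, 37.8 and 50.4 CPM in wild-type and 31.6, 30.001 and 28.2 CPM in eat-2 (log2 -0.50 ± 0.13 SE, edgeR adjusted p = 0.0303). The peptide transporter gene pept-2 was the 1 higher in acs-20 (log2 0.76 ± 0.16 SE, adjusted p = 0.0196), with 26.2, 33.6 and 25.8 CPM against 15.97, 16.003 and 18.7 CPM in wild-type. Over all tested genes 0.987% were higher in acs-20. Against wild-type the double mutant had pept-2 higher (log2 0.86, adjusted p = 0.00208) and laat-1 lower (-0.56, 0.00871), and pept-2 was 0.92 above eat-2 (0.00576). In the double mutant against wild-type, edgeR called 8.94% of all tested genes higher and 8.62% lower. DESeq2 called 5 of the 7 there, where it called 1129 higher and 1519 lower of 16165 tested genes. Of 29 tested genes for lysosomal membrane proteins and for other lysosomal hydrolases, eat-2 had 2 higher and 2 lower. Over all tested genes 4.12% were higher and 3.54% lower there. In acs-20 1 of the 29 was lower (aagr-1, log2 -0.70, edgeR adjusted p = 0.00931), against 1.22% of all tested genes. Double mutant worms had 4 higher and 5 lower than wild-type, against 8.94% and 8.62% of all tested genes. The DNase II gene nuc-1 fell from 103, 85.5 and 127 CPM to 24.9, 20.1 and 28.7 CPM in eat-2 (log2 -2.09 ± 0.17 SE, adjusted p = 5.35e-06). The LAMP-family gene lmp-2 went the other way, from 13.8, 13.5 and 15.7 CPM to 41.98, 27.1 and 30.1 CPM (log2 1.204 ± 0.17 SE, adjusted p = 0.000679). The alpha-mannosidase gene aman-1 was lower (log2 -0.64) and gana-1, an alpha-galactosidase gene, higher (log2 0.77) in eat-2. For the double mutant the smallest p among the lower genes belonged to nuc-1 (log2 -1.65, adjusted p = 1.73e-05), aagr-2 (-0.52, 0.00208) and aagr-4 (-0.84, 0.00267), and among the higher ones to lmp-2 (0.92, 0.00257), gana-1 (1.06, 0.00285) and sul-3 (1.80, 0.00836). Those 6 calls stood in every fit that left out a library. Leaving out a library ended the laat-1 call in 5 of 12 fits (up to 0.124 without wild-type replicate 3), the gana-1 call in 4 (0.131 without wild-type replicate 1), the aman-1 call in 3 (0.0652 without wild-type replicate 3), the pept-2 call in acs-20 in 3 (0.0931 without wild-type replicate 1) and the aagr-1 call in 1 (0.0608 without acs-20 replicate 3).

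Among 20 regulators of gut and lysosomal genes, eat-2 had 3 higher: the zinc finger gene pqm-1 (log2 0.66 ± 0.14 SE, edgeR adjusted p = 0.0122), the Mondo-family gene mml-1 (0.43, adjusted p = 0.036) and its partner mxl-2 (0.50, adjusted p = 0.0475). Over all tested genes 4.12% were higher there. In the double mutant 4 were higher than in wild-type, among them hlh-30, the worm's TFEB gene (log2 0.32 ± 0.09 SE, adjusted p = 0.0334), pqm-1 (0.55), pha-4 (0.77) and flcn-1 (0.26), and raga-1 was lower (-0.35). These 5 of 20 compare with 17.6% of all tested genes called in that comparison. Most of these were not firm. Leaving out a library ended flcn-1 in 12 of 12 fits (up to 0.162 without wild-type replicate 3), mxl-2 in 10 (0.178 without eat-2 replicate 1), mml-1 in 7 (0.170 without wild-type replicate 1), hlh-30 in 7 (0.162 without double mutant replicate 2), pha-4 in 1 (0.0573 without double mutant replicate 1) and pqm-1 in 1 of 12 in eat-2 (0.053 without eat-2 replicate 1) and 3 in the double mutant (0.0883 without double mutant replicate 1). None was called in acs-20 by edgeR or DESeq2, with 1 at an unadjusted p under 0.05.

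Markers of other tissues and of stage were set beside these results. Against wild-type, the share of all tested genes called lower was 8.62% for double mutants, 3.54% for eat-2 and 1.22% for acs-20. Higher calls made up 8.94%, 4.12% and 0.987%, in that order. Of 19 intestine markers, 1 was higher (pgp-1) and 1 lower (the gut esterase gene ges-1) in both eat-2 and the double mutant against wild-type. Adult cuticle markers, which rise as L4 worms near adulthood, summed to 9115 to 11003 CPM in wild-type, 8665 to 9531 CPM in acs-20, 5072 to 8009.5 CPM in eat-2 and 3589 to 5621 CPM in the double mutant. Of these 10 genes edgeR called none in eat-2 (8 at an unadjusted p under 0.05, and 5 by DESeq2) and 5 lower in the double mutant (col-38, col-63, rol-1, bli-1 and bli-2, by -1.30 to -1.07 on the log2 scale). Hypodermis and seam markers summed to 4144 to 6763 CPM in wild-type, 4373 to 5796 CPM in eat-2, 5030.1 to 6279 CPM in acs-20 and 2934.5 to 3898 CPM in the double mutant, whose libraries lay below all others. Of these 12 genes 1 was higher in eat-2 (grd-10, log2 1.51), and in the double mutant grd-10 (1.67) and nhr-25 (1.02) were higher and dpy-13 (-0.78) and bli-1 (-1.30), which is on both lists, lower. Body wall muscle markers summed to 8739.5 to 10301 CPM in wild-type and 6936 to 7981 CPM in eat-2, where 4 of 12 were lower (unc-22, unc-27, unc-15 and lev-11, by -0.58 to -0.34 on the log2 scale). Of these, 3 were also lower in the double mutant (unc-22, unc-27 and unc-15), with a sum of 6947 to 8242 CPM, and in acs-20 tni-1 was higher (log2 0.67). At an unadjusted p under 0.05, in either direction, there were 9 of the 12 in eat-2, 9 in the double mutant and 4 in acs-20. DESeq2 called 8, 7 and 3. Pharyngeal muscle markers had 3 of 7 lower in acs-20 (myo-1, tnt-4 and myo-2) and 1 in eat-2 (myo-2), with pha-4, given above, higher in the double mutant. They summed to 210.5 to 237 CPM in wild-type and 96.6 to 138 CPM in acs-20. The sums were 151 to 195 CPM in eat-2, also below all wild-type libraries, and 204 to 215 CPM in the double mutant. Pharyngeal gland markers summed to 211 to 252 CPM in wild-type and were higher in every library of the mutants, at 273 to 324 CPM in eat-2, 255 to 329.6 CPM in acs-20 and 353 to 380.1 CPM in the double mutant. Of those 7 tested, lys-8 was called higher in eat-2 and lys-8 and phat-6 in the double mutant. Of these sums lys-8 alone held 168, 185 and 155 CPM in wild-type and 223, 257 and 220 CPM in eat-2. It held 206, 238 and 221 CPM in acs-20, and 269, 289 and 299 CPM in the double mutant. The sums thus reflect mainly this gene and not the list as a set. Of 12 neuron markers edgeR and DESeq2 called 0 in any mutant against wild-type, with 2 at most at an unadjusted p under 0.05, and of 5 coelomocyte markers edgeR called 1, let-381, higher in acs-20. The lists for germline, sperm and oocytes gave 0 calls against wild-type in any mutant genotype by edgeR or DESeq2, and 0 at an unadjusted p under 0.05. Within wild-type alone their sums ran from 832 to 1699, 1059 to 1933 and 364 to 933 CPM, in that order. With such a spread, 0 calls do not show equal levels. Median log2 fold changes in eat-2, acs-20 and the double mutant were 0.09, 0.31 and 0.28 for germline markers. They were 0.10, -0.20 and -0.20 for sperm markers, and 0.28, 0.34 and 0.51 for oocyte and embryo markers. Leaving out a library ended the eat-2 calls of ges-1, lys-8 and unc-27 in 3 of 12 fits each, unc-22 in 4, myo-2 in 5, unc-15 in 6 and lev-11 in 8, the acs-20 calls of pgp-1 in 4 and of eps-8 and let-381 in 10 each, and the double mutant calls of unc-27 and nhr-25 in 2 each, bli-1, bli-2 and unc-15 in 4 each, pha-4 in 1 and phat-6 in 6. No marker of these tissues was at 0 in every library. The part of these marker differences in the protease values was not tested.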

How the data were processed

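The authors deposited 1 table of raw counts for each library, without normalization; HTSeq's summary lines (no feature, 44.1 to 46.5% of reads) were left out. Tools listed in the submitters' processing notes are HTSeq, TopHat2, DESeq2 and FastQC 0.11.5. Strand setting, build and annotation release were not given in the sources used here, so symbols and chromosomes came from an Ensembl WBcel235 annotation, which named 43720 of 46739 genes, and no coordinates are given. Counts passing filterByExpr (minimum count 10, minimum total 15) were fitted in R 4.3.3 with edgeR 4.0.16 as 4 group means over 12 libraries (8 residual degrees of freedom), with TMM factors and robust quasi-likelihood tests, checked on simulated data. Alternatives were DESeq2 1.42.0, RLE factors, no filter, the compared samples alone, a replicate block and leaving out each library. Standard errors are the log2 fold change over the root of F. The members and lists were chosen with earlier results of these data known. Values per library are given for members called in at least 1 contrast and for a list of members named beforehand, of which asp-10 matched no symbol; in other lists called genes are named for comparisons with wild-type, all where 5 or fewer, otherwise the 3 with the smallest p in each direction. The labels do not say that replicates were separate cultures, so p-values measure the spread between these libraries only. Protein and promoter sequences were not analysed here.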

Additional observations from a re-analysis of the deposited data

Results flagged for a closer look

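Reads of 2 genes that were left out of the tests for low counts appeared in mutant libraries above the wild-type level. For asp-16 the eat-2 libraries held 4, 2 and 3 counts, 9 in all, and the double mutant 7, 1 and 2, against 0, 1 and 1 in wild-type and 0 in every acs-20 library. For asp-9 the double mutant held 5, 3 and 4 counts, 12 in all, against 1, 2 and 0 in wild-type, 5, 2 and 1 in eat-2 and 1, 2 and 2 in acs-20. Both genes were below the filter on low counts. With no filter, edgeR called neither against wild-type (adjusted p = 0.383 in eat-2 and 0.266 in the double mutant for asp-16, 0.654 and 0.269 for asp-9), and it called asp-16 higher in the double mutant than in acs-20 (adjusted p = 0.0467).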

How the results depend on the processing

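No member call changed direction under any alternative. Of 41 member calls over the contrasts, 41 held with DESeq2, with RLE factors and with the replicate number as a block, 38 with no filter on low counts, 38 with only the compared samples, and 450 of 492 calls in fits that left out a library. Settings also added calls: 7 with DESeq2, 3 with RLE factors, 8 with no filter (and asp-16, which the filter had left out), 4 with only the compared samples and 9 with the block. The count of changed aspartyl genes in acs-20 against wild-type, 2 as reported, was 0 with no filter and 1 with only the compared samples. In the double mutant against eat-2 it was 2 as reported, 4 with RLE factors, 5 with no filter, 5 with DESeq2, 5 with the replicate block and 1 with only the compared samples. In the double mutant against acs-20 it was 3 as reported and 5 with no filter (asp-3 and asp-16 added), 5 with the replicate block and 5 with only the compared samples. The causes were not tested. Leaving out each library in turn gave 4 to 8 changed aspartyl and 6 to 8 cysteine genes in eat-2 against wild-type, 0 to 2 and 1 to 1 in acs-20, 4 to 5 and 6 to 8 in the double mutant, 0 to 4 and 1 to 1 in the double mutant against eat-2, 2 to 5 and 6 to 8 against acs-20, and 0 to 0 in both classes for the interaction. The acs-20 aspartyl count was 0 without wild-type replicate 1 or acs-20 replicate 2 or 3, and 1 without wild-type replicate 2 or 3, eat-2 replicate 2 or 3, acs-20 replicate 1 or double mutant replicate 1. The count in the double mutant against eat-2 was 4 without wild-type or eat-2 replicate 2, 1 without eat-2 replicate 1 and 0 without double mutant replicate 1 or 2, and that against acs-20 was 5 without eat-2 replicate 1. Replicate numbers were not shown to pair the libraries: same-numbered libraries deviated together with correlations of -0.09 to 0.43, and no pair of genotypes exceeded 0.1 at all 3 numbers. With the block the aspartyl count in eat-2 against wild-type was 9, where 6 were reported, through asp-1 (adjusted p = 0.0135), asp-5 (0.0276) and asp-2 (0.0311). Genes that did not pass the filter on low counts were too scarce to be compared in the main test at this depth.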
